A study of Mus musculus with 4 samples.

Results

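Microglia, the resident macrophages of the brain, were compared between a wild-type mouse brain library taken after cerebrovascular injury and one taken after sham surgery. The cells were chosen by a marker rule and without clustering. Barcodes had to hold 500 or more genes, 1000 or more UMIs (unique molecular identifiers, 1 per captured transcript) and no more than 10% mitochondrial UMIs, with at least 2 of Sall1, Siglech, P2ry12 and Tmem119 detected. This gave 781 of 992 filtered cells in the sham library (78.7%, exact Clopper-Pearson 95% interval 76.05 to 81.2) and 2235 of 2996 in the injured library (74.6%, 73.0 to 76.15). Together these 3016 cells are part of 8018 filtered cells and 16040 barcodes in the series. Both libraries carry the genotype label IL6 WT (+/+), and both treatment labels give day 6. CVI stands for an injury made by pulsed ultrasound over a thinned skull after microspheres were given into the blood. A mild and a severe form are described, and which one these mice received is not stated. The mice were 8 to 12 weeks old at surgery, tissue was a 4 mm punch, and cells were taken with CD11b microbeads after myelin removal, so cells without CD11b were selected against. The extraction protocol calls the control mice uninjured, whereas the sample label says sham surgery. The same marker rule gave 1193 and 2236 cells in the sham and injured libraries labelled IL6 KO (-/-). These libraries served as a second sham baseline and in the only fit that allowed a test.

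Microglia in the healthy brain carry a set of surface and secreted genes, called homeostatic, that depends in part on TGF-beta signalling and on transcription factors such as Sall1. P2ry12 and Cx3cr1 encode receptors for nucleotides and fractalkine through which microglia sense neurons and damage. After injury or in degeneration, microglia are known to lower these genes and to express lipid-handling, lysosomal and secreted genes, a pattern named disease-associated and linked to the receptor Trem2. Type I interferon induces a separate set of antiviral genes through STAT and IRF factors.

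The summed microglia-marker cells held 9274829 UMIs in the sham library and 29399171 in the injured one, with a median of 8683 and 10456 UMIs per cell. The mitochondrial limit removed 65.4% of 2866 sham cells and 16.0% of 3566 injured cells that passed the gene and UMI minimums. Of the sham barcodes, 135 also occurred in the knockout-labelled sham library, with 22 selected in both, while every other pair of libraries shared 2 to 14 barcodes. Outside the rule, Csf1r, a gene of the macrophage lineage, was found in 99.3% of sham and 94.1% of injured cells at equal depth. Markers of other cells moved with the comparison. At least 2 of 10 macrophage or monocyte markers were found in 53 sham cells (6.79%) and 514 injured cells (23%), and summed monocyte markers stood at 775.5 and 8870 CPM, mostly Lyz2. CPM here is the usual scaling of a gene's UMI count to the total UMIs of the selected cells of that library. At least 2 of 8 neuron markers were found in 25.9% of sham and 2.91% of injured cells, at a summed 183.4 and 19.97 CPM. Neutrophil markers summed to 1534 and 327.3 CPM, border-associated macrophage markers to 423.6 and 634.6 CPM, and endothelial markers to 594.5 and 625.5 CPM. Oligodendrocyte markers summed to 169.4 and 79.6 CPM, astrocyte markers to 199.5 and 99.6 CPM, and dendritic cell markers to 4.53 and 5.03 CPM. Sums hid members that went the other way. Bsg made up most of the endothelial sum (415.6 and 540.8 CPM), and every other endothelial marker was lower. Border-associated markers went both ways, with Ms4a7 at 39.6 and 236.2 CPM and Mrc1 at 66.96 and 12.8 CPM. At least 2 endothelial markers were found in 25.6% of sham and 15.9% of injured cells. At least 2 neutrophil markers were found in 4.99% and 9.75%. Lymphocyte markers were close to 0, with Cd3e, Cd3d, Nkg7 and Gzma at 0 UMIs in both libraries. The marker rule cut through a gradient. Injured cells with 1 of the 4 markers, just outside, had 98934 CPM of Apoe and 31469 CPM of Lyz2. Injured cells with 2 markers, just inside, had 84159 and 19619 CPM of these genes, and those with all 4 had 40397 and 5794 CPM.

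Far more genes were lower than higher per total UMIs, whereas the largest ratios were upward. Among 6336 genes with at least 20 CPM in either library and at least 50 UMIs over both, 254 were at least 2-fold higher after injury (4.01%) and 625 at least 2-fold lower (9.86%), on a log2 scale with a prior of 10 CPM. At least 4-fold, 53 genes were higher and 19 lower. The median gene stood at a log2 ratio of -0.32, and this is the level against which a list is read. Apoe held 1939 CPM in sham and 53889 CPM in injured cells, and CPM are shares of a fixed total. How far this moved the median was not tested. With TMM factors, which rest on the bulk of genes, the median was 0.24 and the counts became 731 higher and 117 lower. With median-of-ratios factors they were 758 and 110. Without the barcodes found in another library, 247 were higher and 549 lower. The 2 sham libraries differed far less: in the knockout-labelled sham cells, 4 of 6233 genes reached 2-fold above the wild-type sham cells (0.0642%) and 20 reached 2-fold below (0.321%). Each group has 1 library, so these values carry no p, and all intervals given cover counting error only. The plot of summed CPM sets each gene's sham level against its injured level.

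**Figure D1:**
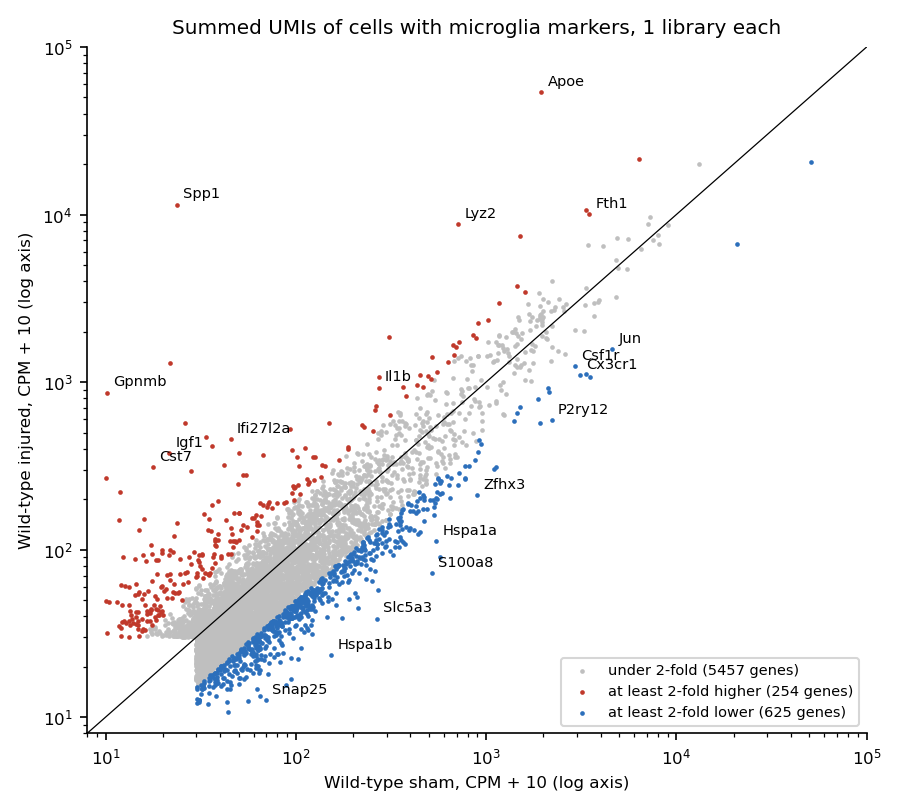
Each point is 1 of 6336 genes, with CPM plus 10 in the wild-type sham cells (x, log axis) and in the wild-type injured cells (y, log axis), and the line marks equal values. Red points are the 254 genes at least 2-fold higher and blue points the 625 at least 2-fold lower, with Spp1, Apoe and Gpnmb far above the line and Hspa1b, Slc5a3 and Snap25 below it.

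The only test open to these data adds the knockout-labelled pair. An edgeR quasi-likelihood fit over the 4 libraries, with terms for genotype label and injury, asks for an injury difference shared by both labels and has 1 residual degree of freedom. It called 2644 of 13658 genes higher (19.4%) and 2216 lower (16.2%) at a Benjamini-Hochberg adjusted p under 0.05. These shares are the level against which the list counts of this fit are read. Far fewer genes were called when either sham library was left out, in fits with no genotype term. Such a fit takes its spread from the injured libraries alone, because a single sham library has none. With either injured library left out, the spread came from the sham libraries, and far more calls remained. These fits leave 1 sham or 1 injured library, so their counts are not given. DESeq2 called 1777 higher and 908 lower. Il6, which the knockout should remove, was at 11.0 and 5.14 CPM in the wild-type sham and injured cells and at 23.1 and 21.2 CPM in the knockout-labelled ones, so the genotype label is used here only as a name. The labels do not name the deleted exon, and 3′ tags need not cover it.

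Genes of the disease-associated pattern were higher, and 14 of them were among the 53 genes at least 4-fold higher. Of 28 members compared, 26 were at least 1.5-fold higher and 0 lower, beside 8.71% higher and 32.1% lower among all genes compared, with a median log2 ratio of 1.97. Between the 2 sham libraries 18 members passed the same filter, with a median of 0.17, so some of the 28 entered through their injured level. The filter left out none of the 28 measured members. The edgeR fit called 24 of 28 higher and 0 lower. Members not past 1.5-fold were Trem2, the lipid-sensing receptor, with 1903 CPM in sham and 2825 CPM in injured cells, and Gpr84, a fatty acid receptor, with 217.7 and 306.7 CPM. With TMM factors 28 of 28 members were at least 1.5-fold higher, and the edgeR fit called Trem2 higher (adjusted p = 9.04e-06). The plot of list members shows how far each of the 17 lists sat from the median of all genes.

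**Figure D2:**
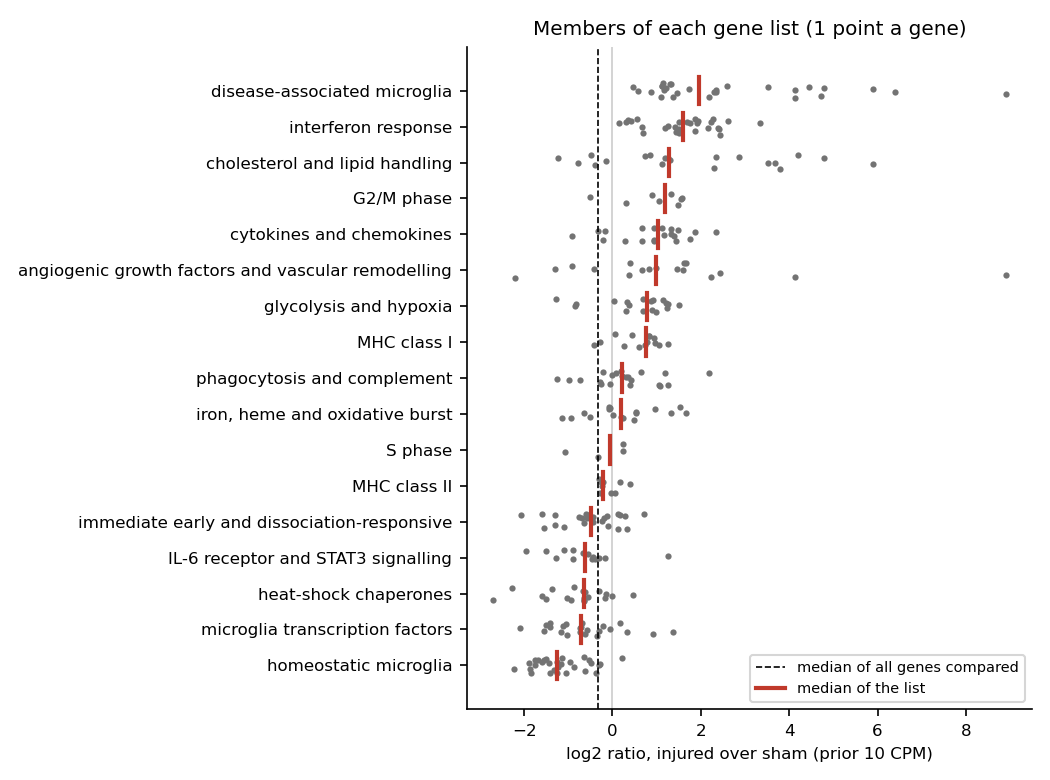
Each grey point is 1 compared gene of a list, placed by its log2 ratio of injured over sham with a prior of 10 CPM (x), and lists are ordered by their median (red bar). The dashed line is the median of all 6336 genes at -0.32, with the disease-associated list at 1.97 at the top and the homeostatic list at -1.24 at the bottom.

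Spp1, which encodes the secreted glycoprotein osteopontin, had the largest log2 ratio. It held 13.8 CPM (exact Poisson 95% interval 11.5 to 16.4) in sham and 11464 CPM (11425 to 11503) in injured cells, a ratio of 831 (exact conditional interval 698.6 to 995.7). In GRCm38, Spp1 (ENSMUSG00000029304) spans 104435118 to 104441050 of chromosome 5 (+ strand). The injured knockout-labelled cells held 1100 CPM against 12.7 in their sham cells, so the injured level was far below that of the wild type. The edgeR fit over the 4 libraries did not call Spp1, with an adjusted p of 0.22 (0.37 at most and 1.25e-08 at least over the other settings).

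Apoe, the main lipoprotein of the brain and a carrier of cholesterol, held more UMIs in injured cells than any other gene named here. Its level was 1939 CPM (1911 to 1968) in sham and 53889 CPM (53805 to 53973) in injured cells, 27.8-fold higher (27.4 to 28.2). Its gene (ENSMUSG00000002985) spans 19696109 to 19699188 of chromosome 7 (- strand). In the knockout-labelled pair it stood at 1339 and 16112 CPM, and the edgeR adjusted p was 0.14 (0.00018 to 0.20 over the other settings). Fabp5, a fatty acid binding protein, went from 11.9 to 1298 CPM, with an edgeR adjusted p of 0.24 (4.22e-05 to 0.41). Lgals3, encoding galectin-3, went from 16.2 to 558 CPM, with an adjusted p of 0.16 (4.06e-05 to 0.31). These 4 genes were higher after injury under both labels, and by different amounts.

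Other members passed the edgeR fit, some with like levels in both injured libraries and some not. Cst7, encoding the protease inhibitor cystatin F, went from 7.66 CPM in sham to 300.4 CPM in injured wild-type cells, 39.2-fold higher (31.1 to 50.3), and from 7.65 to 351.3 CPM in the knockout-labelled pair (adjusted p = 8.76e-15). Csf1, a growth factor that microglia depend on, went from 26.2 to 174.3 CPM in the wild type and from 31.8 to 175.0 CPM in the knockout-labelled pair (adjusted p = 8.84e-11). Axl, a receptor for dying cells, went from 8.95 to 76.7 and from 6.73 to 94.9 CPM (adjusted p = 5.63e-13). Lpl, lipoprotein lipase, stood at 26.1 and 407 CPM in the wild type, and the lysosomal proteases Ctsb and Ctsd at 1502 and 7415 CPM and at 6385 and 21302 CPM. Igf1, a growth factor, was 31.5-fold higher (26.1 to 38.5), at 11.6 and 367.2 CPM, but the fit called it only narrowly (adjusted p = 0.048, 0.086 without the genotype term). The knockout-labelled pair had 9.56 and 87.95 CPM of Igf1. Gpnmb, a glycoprotein of lysosome-rich macrophages, held 2 UMIs in sham and 25114 in injured cells, a 3961-fold ratio (counting interval 1097 to 32713). Cd5l, a secreted macrophage protein, held 1 and 7594 UMIs, a ratio of 2396 (429.9 to 94639). In the injured cells Gpnmb was at 854.2 CPM in the wild type and 110.8 CPM under the knockout label, and Cd5l at 258.3 and 13.6 CPM. The fit called both (Gpnmb adjusted p = 1.78e-17, Cd5l 0.016), but not without the genotype term (0.082 and 0.17).

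Spp1, Gpnmb, Fabp5, Lgals3 and Cd5l were concentrated in the injured cells that also carried macrophage or monocyte markers. Those 514 cells, with a median of 20214 UMIs against 8700 in the other 1721, held 40.1% of all UMIs but 77.7% of Spp1, 87.3% of Gpnmb, 79.9% of Fabp5, 77.1% of Lgals3 and 84.1% of Cd5l UMIs. Spp1 stood at 22202 CPM in them and 4271 CPM in the rest, and Apoe at 79226 and 36917 CPM. Cst7 ran the other way, at 203.5 CPM in them and 365.3 CPM in the rest. P2ry12 was at 250.1 and 810.5 CPM. Without the macrophage-marker cells of both libraries the log2 ratio was 7.76 for Spp1 (8.91 with them), 4.24 for Gpnmb (6.403), 4.43 for Fabp5 (5.90), 2.96 for Cd5l (4.73) and 4.34 for Cst7 (4.14), and the list had 27 of 28 members higher. Leaving those cells out gave 202 genes at least 2-fold higher, 182 of them among the 254, and 385 lower, 381 of them among the 625. Which cell lineage these marker-carrying cells come from was not tested.

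Lipid-handling genes were mostly higher. Of 20 members compared, 15 were at least 1.5-fold higher and 2 lower (median 1.28), beside 8.71% and 32.1% of all genes. Only 14 passed the same filter between the sham libraries, so some of the 20 entered through their injured level. Without the filter on low values, 16 of 24 were higher and 2 lower (median 1.15). The edgeR fit called 12 higher and 2 lower of 24. Plin2, which coats lipid droplets, went from 23.8 to 458.5 CPM, 19.2-fold higher (16.9 to 22.1). Apoc2, an apolipoprotein that activates lipoprotein lipase, went from 1.94 to 211.0 CPM, 109-fold higher (68.7 to 183.5). Apoc4 held 0 UMIs in sham and 1159 in injured cells, at least 122-fold higher against a floor of 3 UMIs in the sham library. The cholesterol exporters Abca1 and Abcg1 stood at 227.3 and 415.3 CPM and at 85.8 and 207.3 CPM. The 2 members at least 1.5-fold lower were Insig1, at 52.6 and 16.7 CPM, and Srebf2, at 22.9 and 9.01 CPM, both regulators of cholesterol synthesis. With TMM factors, or against the knockout-labelled sham library, 1 member was lower. The synthesis enzyme Hmgcs1, at 32.2 and 22.3 CPM, lay between. Plin2 did not pass the edgeR fit (adjusted p = 0.27, 0.0052 to 0.42 over the other settings), and the knockout-labelled cells had 22.45 and 89.6 CPM.

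Interferon-response genes were higher as a group and at like levels under both labels. Of 28 members compared, 23 were at least 1.5-fold higher and 0 lower (median 1.60), beside 8.71% and 32.1% of all genes. Only 12 members passed the same filter between the sham libraries, with a median of -0.09. Many of the 28 thus entered through their injured level. Without the filter on low values, 23 of 31 were higher and 0 lower (median 1.51). The edgeR fit called 31 of 31 tested members higher. Ifi27l2a, a small interferon-induced membrane protein, went from 35.5 CPM (31.7 to 39.5) in sham to 446.9 CPM (439.3 to 454.6) in injured cells, 12.6-fold higher (11.3 to 14.1), and from 22.2 to 439.6 CPM in the knockout-labelled pair (adjusted p = 1.9e-13). Without macrophage-marker cells its log2 ratio was 4.94 in place of 3.33, with 8.675 CPM in sham and 564.7 CPM in injured cells. Rtp4, an interferon-induced chaperone of receptors, went from 7.33 to 96.0 CPM, 13.1-fold higher. Ifitm3, which blocks virus entry, went from 57.6 to 358 CPM, 6.22-fold higher (5.70 to 6.80). Ifit3, which takes part in antiviral RNA sensing, went from 8.41 to 76.8 CPM, 9.13-fold higher (7.28 to 11.6). Irf7, the factor that sustains interferon production, stood at 6.25 and 75.9 CPM. The sensors Ddx58 and Ifih1, with 22.3 and 25.6 CPM and with 22.1 and 31.2 CPM, were among the 5 that stayed within 1.5-fold, with Irf9, Trim30a and Phf11d. Ifit3 has a close copy, Ifit3b (1.73 and 7.42 CPM), and how the authors' counting split reads between them is not known here.

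Promoter windows of 3 of these genes are shown because most members with a window hold the same short element. The windows run from 250 bases before to 50 after a RefSeq start and come from the RefSeq table for GRCm38.p6. An interferon-stimulated response element core, searched as GAAANNGAAA and its reverse TTTCNNTTTC, was found in 15 of the 25 list members with a window (60.0%), against 1079 of 27025 genes with a window (3.99%). Windows of 300 bases held it in 3.44% of cases. Capitals mark the matches, each sequence reads 5′ to 3′ along the strand of the gene, and the first match starts at base 95 of the Ifit3 window, 253 of Ifitm3 and 38 of Cxcl10. The intervals are chr19:34583279-34583578 (+) for Ifit3, chr7:141010695-141010994 (-) for Ifitm3 and chr5:92348840-92349139 (-) for Cxcl10.
Ifit3: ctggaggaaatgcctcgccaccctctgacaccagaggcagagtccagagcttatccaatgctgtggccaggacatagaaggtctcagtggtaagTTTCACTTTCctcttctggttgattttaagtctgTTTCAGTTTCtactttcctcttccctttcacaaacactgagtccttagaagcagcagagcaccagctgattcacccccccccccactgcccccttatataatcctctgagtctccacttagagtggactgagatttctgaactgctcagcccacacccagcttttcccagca
Ifitm3: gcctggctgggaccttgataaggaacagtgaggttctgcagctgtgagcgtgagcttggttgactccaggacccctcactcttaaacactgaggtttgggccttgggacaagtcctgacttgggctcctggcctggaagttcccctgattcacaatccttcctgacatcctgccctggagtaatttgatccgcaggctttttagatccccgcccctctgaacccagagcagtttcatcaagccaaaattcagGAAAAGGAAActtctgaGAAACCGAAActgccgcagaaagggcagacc
Cxcl10: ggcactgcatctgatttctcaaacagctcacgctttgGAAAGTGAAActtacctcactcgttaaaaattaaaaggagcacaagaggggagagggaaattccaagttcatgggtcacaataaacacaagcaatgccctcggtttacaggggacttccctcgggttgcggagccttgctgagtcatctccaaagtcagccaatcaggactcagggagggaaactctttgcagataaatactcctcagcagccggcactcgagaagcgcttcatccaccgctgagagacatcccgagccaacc
A match describes letters and not binding. Ifit3 and Ifitm3 hold 2 matches each and Cxcl10 holds 1, while Irf7 and Ifit2, at 4.21 and 43.6 CPM, hold none in these windows. Of the members within 1.5-fold, Ddx58, Ifih1 and Trim30a also hold a match, and Irf9 and Phf11d hold none. Whether a match goes with a higher level was not tested.

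Cytokine and chemokine genes were mostly higher. Of 20 members compared, 15 were at least 1.5-fold higher and 1 lower (median 1.03), beside 8.71% and 32.1% of all genes. Without the filter on low values, 15 of 26 were higher and 1 lower (median 0.80). The edgeR fit called 17 of 25 higher and 0 lower. Il1b, the precursor of interleukin-1 beta, went from 262.2 CPM (251.9 to 272.8) to 915.2 CPM (904.3 to 926.2), 3.49-fold higher (3.35 to 3.64). Cxcl10, which attracts T cells, went from 101.2 to 395.4 CPM, 3.91-fold higher (3.65 to 4.18). The chemokines Ccl3 and Ccl4 stood at 839.8 and 1896 CPM and at 1584 and 3461 CPM. Tnf was at 273.9 and 332.9 CPM, a ratio of 1.22 (1.16 to 1.27), and Il1a at 420 and 371 CPM. Il1rn, the antagonist of the interleukin-1 receptor, stood at 3.45 and 25.5 CPM, and Osm, a cytokine of the IL-6 family, at 36.2 and 114.7 CPM. Tgfb1, which supports the homeostatic state, was the 1 member lower, at 410 and 212.7 CPM. Il6 itself was too low to enter the comparison, with 102 UMIs in sham and 151 in injured cells.

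Receptor genes for IL-6 family cytokines stood at lower CPM after injury, and the share of the list that edgeR called lower was near that of all genes. Il6ra, the ligand-binding subunit, went from 286.9 CPM (276.1 to 298.0) to 94.8 CPM (91.3 to 98.4), 3.03-fold lower, and the edgeR fit called it lower (adjusted p = 0.0041). Il6st, the shared signalling subunit gp130, stood at 115.8 and 57.8 CPM, and the fit did not call it (adjusted p = 0.29, 0.23 to 0.48 over the other settings). Lifr, the receptor for leukaemia inhibitory factor, stood at 72.1 and 11.3 CPM, 6.39-fold lower (adjusted p = 4.55e-07). Stat3, the factor they activate, stood at 233.5 and 103.5 CPM, but the knockout-labelled pair had 141.9 and 113.9 CPM and the fit did not call it (adjusted p = 0.28, 0.23 to 0.42 over the other settings). Socs3, the feedback inhibitor of gp130 signalling, stood at 442.8 and 324 CPM, a log2 ratio of -0.44 that became 0.16 with TMM factors. Of 14 members compared, 7 were lower by 1.5-fold or more and 1 was higher, beside 32.1% lower among all genes. The edgeR fit called 3 of 15 lower and 1 higher, beside 16.2% and 19.4% of all genes tested. The median of -0.61 sits near the -0.32 of all genes, and with TMM factors it was -0.10, with 3 members lower.

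Genes for presenting peptides on MHC class I were higher, and those of class II were not at least 1.5-fold different. Of 14 class I members compared, 9 were at least 1.5-fold higher and 0 lower (median 0.75), beside 8.71% and 32.1% of all genes. The edgeR fit called 13 of 15 higher. H2-D1 went from 712.4 to 1720 CPM, 2.42-fold higher (2.35 to 2.48), H2-K1 from 698.7 to 1381 CPM, 1.98-fold (1.93 to 2.03), and B2m, their common light chain, from 1882 to 3369 CPM. The classical H2 genes are near-identical in sequence, so the split between them is uncertain. Of 9 class II members compared, 0 were at least 1.5-fold higher or lower. Cd74, the invariant chain, stood at 189 and 155.3 CPM and H2-Ab1 at 69.2 and 94.0 CPM. The class II median was -0.22, but 0.33 with TMM factors, and 0.12 without the macrophage-marker cells, when 4 members were higher. Between the sham libraries, 3 of 9 class II members were at least 1.5-fold lower under the knockout label. In the knockout-labelled pair Cd74 was at 112.5 and 267.8 CPM, and the edgeR fit over both labels called 5 of 11 class II members higher.

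Phagocytic genes differed in both directions in CPM, and the edgeR fit called most of the list higher. The complement genes C1qa, C1qb and C1qc stood at 7228 and 9709, 7080 and 8753, and 5553 and 7118 CPM. Mertk, a receptor for dying cells in the resting brain, was 2.46-fold lower at 463.2 and 188.2 CPM, while Axl of the same family was 8.58-fold higher. Cd14, a co-receptor for bacterial lipopolysaccharide, stood at 540.9 and 1133 CPM, and the integrin subunit Itgam, whose protein CD11b was used to select the cells, at 597.5 and 295.2 CPM. Of 21 members compared, 6 were at least 1.5-fold higher and 3 lower (median 0.23), beside 8.71% and 32.1% of all genes. With TMM factors 14 of 22 were higher and 1 lower. The edgeR fit called 14 of 24 higher and 1 lower, beside 19.4% and 16.2% of all genes tested.

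Glycolytic enzymes and iron-storage genes were higher. Of 18 glycolysis and hypoxia members compared, 11 were at least 1.5-fold higher and 3 lower (median 0.78). Among all genes 8.71% were higher and 32.1% lower. With TMM factors the list counts were 14 higher and 1 lower of 17. The edgeR fit called 16 of 20 higher and 1 lower. Pgk1, an ATP-yielding enzyme, went from 69.8 to 179.8 CPM, 2.58-fold higher (2.37 to 2.80), Pkm from 219.6 to 529 CPM and Ldha, which makes lactate, from 132.6 to 306.3 CPM. Mif, a cytokine-like protein grouped with the hypoxia genes, went from 116.2 to 348.3 CPM. Hk2, the first enzyme of glucose use, ran against them at 349.2 and 138.9 CPM, and so did Slc2a5, a sugar transporter specific to microglia in the brain, at 260.7 and 47.45 CPM. The ferritin genes Fth1 and Ftl1 were 2.91-fold (2.88 to 2.95) and 3.20-fold (3.16 to 3.24) higher, at 3464 and 10086 CPM and at 3333 and 10670 CPM. Tfrc, the transferrin receptor that takes up iron, stood at 32.2 and 9.29 CPM, and Slc40a1, the iron exporter, at 118.1 and 56.8 CPM. Of 17 iron and oxidative burst members compared, 4 were higher and 3 lower, beside 8.71% and 32.1% of all genes. With TMM factors the counts were 9 and 1. The edgeR fit called 8 of 19 higher and 2 lower, beside 19.4% and 16.2% of all genes tested. In the knockout-labelled pair Ftl1 stood at 3412 and 5491 CPM, and the fit did not call it (adjusted p = 0.13, 6.34e-26 to 0.33).

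Growth factors of blood vessels did not move as one group. Of 17 members compared, 11 were at least 1.5-fold higher and 3 lower (median 0.99), beside 8.71% and 32.1% of all genes. Only 10 passed the same filter between the sham libraries, so some of the 17 entered through their injured level. Spp1 and Igf1, described above, had the largest ratios. Anxa2, which activates plasmin at the cell surface, went from 7.55 to 84.1 CPM. Hpse, which cleaves heparan sulfate in the matrix, went from 0.43 to 38.6 CPM, and Fn1, fibronectin, from 9.81 to 50.9 CPM. Vegfa, the main vessel growth factor, stood at 11.5 and 11.2 CPM and was under the level for comparison. Hbegf was lower, at 92.6 and 12.4 CPM in the wild type and at 89.5 and 12.0 CPM in the knockout-labelled pair, and Pdgfb stood at 257.4 and 98.4 CPM. Without the filter on low values, 12 of 28 members were higher and 3 lower (median 0.39). Without macrophage-marker cells, 5 of 15 members compared were higher and 3 lower (median 0.54). The edgeR fit called 13 of 26 higher and 3 lower, beside 19.4% and 16.2% of all genes tested.

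Cell cycle genes were present in few cells. Of 29 G2/M genes, 8 were abundant enough to compare. At least 1.5-fold, 6 were higher and 0 lower, beside 8.71% and 32.1% of all genes. Only 2 of the 29 passed the same filter between the sham libraries, so most of the 8 entered through their injured level. Without the filter on low values, 16 of 29 were higher and 0 lower (median 0.61). Birc5, needed for cell division, went from 2.48 to 27.45 CPM, 11.1-fold higher (7.33 to 17.6), and Mki67, the Ki-67 antigen, from 6.04 to 23.1 CPM, 3.83-fold (2.92 to 5.13). At 3000 UMIs per cell, Mki67 was found in 0.444% of sham and 2.33% of injured cells (Clopper-Pearson 1.73 to 3.05). The edgeR fit, which also tests low genes, called 27 of 29 higher. It did not call Mki67 (adjusted p = 0.35, 4.55e-64 to 0.53 over the other settings). Birc5 was called (adjusted p = 2.39e-07), but not without the genotype term (0.082). In the S phase list only 4 of 24 were compared and 0 were higher, a count that was 3 of 5 with TMM factors, and the fit called 20 of 24 higher.

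Homeostatic genes were lower, by amounts that differed widely among them. Over the whole list of 29 compared the median was -1.24. The 4 selection markers belong to this list and are left out of the counts here. By 1.5-fold or more, 19 of 25 were lower and 0 higher (median -1.17), beside 32.1% lower among all genes. The sham libraries differed by a median of 0.18 in the opposite direction. With TMM factors the median of all 29, selection markers included, was -0.66, with 17 lower and 1, Fcrls, higher. The edgeR fit called 15 of 26 lower and 1 higher without the selection markers. Cx3cr1, the fractalkine receptor, went from 3096 CPM (3060 to 3132) to 1090 CPM (1078 to 1102), 2.84-fold lower (2.80 to 2.89), and from 2812 to 1458 CPM in the knockout-labelled pair (adjusted p = 0.00029). Csf1r, the receptor for Csf1, went from 2925 to 1229 CPM, 2.38-fold lower (2.34 to 2.42), with an adjusted p of 0.0099 that became 0.072 without the genotype term. Selplg, a selectin ligand, stood at 1913 and 559.5 CPM, and P2ry13, a nucleotide receptor, at 409.4 and 120.9 CPM. Fcrls, an Fc receptor-like gene, stood at 1444 and 1687 CPM, and the secreted protein Olfml3 at 1218 and 989.6 CPM.

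The 4 selection genes are described without a test, since each cell had to hold 2 of them. P2ry12 (ENSMUSG00000036353, GRCm38 chromosome 3, 59216272 to 59262871, - strand) stood at 2202 and 585.7 CPM, Tmem119 at 1090 and 293.1 CPM, Siglech at 1117 and 302.5 CPM, and Sall1, a transcription factor of microglia identity, at 289.1 and 103 CPM. Their injured levels in the knockout-labelled cells were 1145, 516, 590.1 and 165.1 CPM.

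Transcription factors of microglia were mixed, with more members lower than higher in CPM. Besides Sall1, 13 of 22 compared were below sham by 1.5-fold or more and 2 above (median -0.70), and with TMM factors the median of all 23 was -0.16 with 6 lower and 4 higher. Among all genes 32.1% were lower. The edgeR fit, without Sall1, called 6 of 23 higher and 6 lower, beside 19.4% and 16.2% of all genes tested. Zfhx3, a zinc finger homeobox factor, went from 888.6 to 200.8 CPM, 4.43-fold lower (4.28 to 4.58), and the edgeR adjusted p was 0.00012. Mef2a, a factor of the homeostatic state, stood at 761 and 254.2 CPM, and Etv5 at 71.5 and 18.95 CPM. Spi1 (PU.1) and Irf8, which all macrophages need, stood at 378.3 and 326 CPM and at 491.1 and 469.2 CPM. The 2 higher members were Bhlhe40, a factor of lipid and lysosome genes in macrophages, at 3.99 and 26.4 CPM, and Hif1a, the hypoxia factor, at 93.2 and 184.9 CPM.

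Heat-shock and immediate early genes are known to respond to tissue dissociation, and most chaperones stood at lower CPM in injured than in sham cells. Of 19 chaperone genes, 13 reached 1.5-fold below sham after injury and 0 above (median -0.65), beside 32.1% and 8.71% of all genes. With TMM factors 5 were lower and 1 higher. The edgeR fit called 8 of 19 lower and 1 higher. Hspa1b (ENSMUSG00000090877, GRCm38 chromosome 17, 34956436 to 34959238, - strand) went from 143.7 CPM (136.1 to 151.7) to 13.4 CPM (12.1 to 14.8), 10.7-fold lower (9.55 to 12.0), and from 189.5 to 13.4 CPM in the knockout-labelled pair (adjusted p = 2.03e-11). Its near-identical neighbour Hspa1a stood at 535 and 102.2 CPM, and the division of reads between the pair is uncertain. Hsp90aa1 stood at 805.1 and 304.7 CPM, whereas Hspa8, the constitutive form, stood at 1704 and 1534 CPM. Of 24 immediate early genes, 10 were at least 1.5-fold lower and 1, Ier3, higher (median -0.49), but with TMM factors 5 were lower and 6 higher (median 0.11). Those 10 of 24 stand beside 32.1% lower among all genes. The edgeR fit called 7 of 24 higher and 6 lower, beside 19.4% and 16.2% of all genes tested. Jun stood at 4587 and 1556 CPM, Egr1 at 3352 and 1110 CPM, and Fos at 3281 and 2864 CPM. A heat shock element, searched as GAANNTTCNNGAA and its reverse TTCNNGAANNTTC, was found in windows of 4 of 16 chaperone genes (25.0%: Hsph1, Hspe1, Hspd1 and Chordc1) against 0.662% of 27025 genes. The share of cells over the mitochondrial limit differed between the libraries in the same comparison (65.4% and 16.0%), and its part in these values was not tested.

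Several of the genes with the lowest ratios belong to other cells or rest on few cells. Snap25 and Nrgn, genes of neurons, stood at 59.7 and 2.59 CPM and at 78.4 and 5.61 CPM, and the neuron-marker list moved with them as given above. S100a8 and S100a9, granule genes of neutrophils, stood at 510.4 and 62.4 CPM and at 564 and 79.9 CPM, but at equal depth either was found in 1.78% of sham cells. In the knockout-labelled sham cells they were at 3.41 and 6.32 CPM, so against that baseline the injured cells were higher. Mgp, a matrix protein, stood at 54.9 and 3.33 CPM, and without the sham barcodes found in another library its log2 ratio turned from -2.28 to 0.15. Slc5a3, the myo-inositol transporter, did not rest on few cells: it went from 256.7 CPM (246.5 to 267.2) to 28.7 CPM (26.8 to 30.7), 8.94-fold lower (8.26 to 9.68), and was found in 38.2% of sham and 8.46% of injured cells at 3000 UMIs. The edgeR adjusted p of Slc5a3 was 0.0012. The knockout-labelled sham cells held 124.4 CPM, and against that baseline Slc5a3 was 4.33-fold lower. Gm16310, annotated as a sense intronic RNA, stood at 84.1 and 6.97 CPM. Gm47283, annotated as protein coding on chromosome Y, stood at 202.6 and 34.8 CPM. Their levels in the knockout-labelled sham cells were 34.25 and 71.0 CPM.

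**Figure D3:**
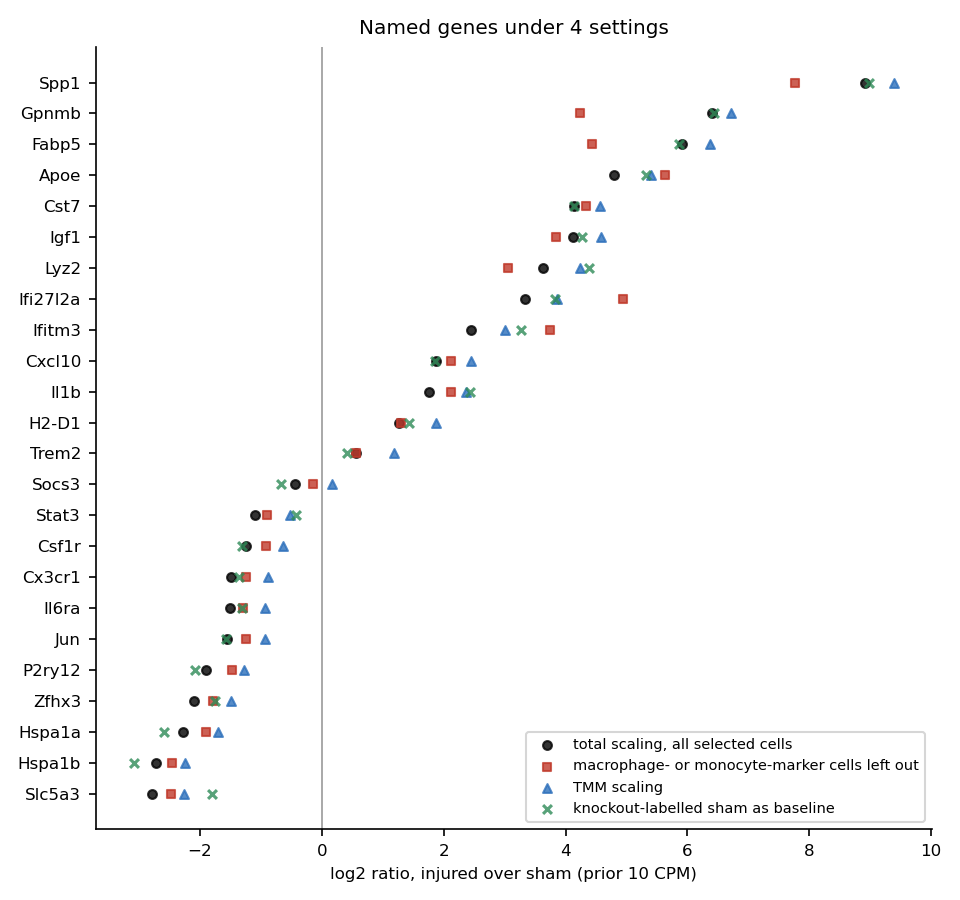
Log2 ratio of injured over sham with a prior of 10 CPM (x) for 24 named genes under 4 settings: as reported (circles), without macrophage- or monocyte-marker cells (squares), with TMM factors (triangles), and with the knockout-labelled sham library as baseline (crosses). Socs3 lies on either side of 0, Gpnmb and Fabp5 are nearest to 0 without the macrophage-marker cells, and Spp1 stays at 7.76 or more.

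To tell a shift of all cells from a new subset, each cell was thinned to 3000 UMIs. This kept 675 sham and 2151 injured cells and left out 106 and 84 shallower ones. The share of cells with a UMI was then set beside the share that an even Poisson spread of the same UMIs would give. Free RNA can place UMIs in any droplet, so the share in endothelial cells of the same library at the same depth is given as well (21 sham and 56 injured cells, median 5129 and 4546 UMIs before thinning).

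Apoe was the gene that came closest to a shift of nearly every cell. A UMI of Apoe was found in 46.2% of sham (42.4 to 50.1) and 99.8% of injured cells (99.5 to 99.95), and before thinning in 67.4% and 100%. Endothelial cells held it in 95.2% and 98.2%. The sham endothelial share lay above that of the sham microglia-marker cells, so it does not give the level of free RNA for Apoe. The number of UMIs per cell is given as well. Sham cells had a median of 0 and injured cells a median of 79 Apoe UMIs, with 6 at the 10th percentile and 318 at the 90th. The mean was 127.4 UMIs in injured cells and 21.7 in injured endothelial cells. Above the 95th percentile of sham cells (29.3 UMIs) lay 66.5% of injured cells. Without macrophage-marker cells the injured median was 40 and the 10th percentile 5.

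Spp1 was spread over most injured cells at a low level and concentrated in a few. It was found in 1.04% of sham cells (0.418 to 2.13) and 62.4% of injured cells (60.3 to 64.4), where an even spread would have reached 100%. Injured endothelial cells held it in 44.6%, at a mean of 2.70 UMIs against 18.05 in the microglia-marker cells. The injured median was 1 and the 90th percentile 48, and the top 10% of cells held 78.75% of its UMIs. Without macrophage-marker cells, Spp1 was found in 54.6% of injured and 0.804% of sham cells, and the 90th percentile was 9.

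At 3000 UMIs, several other strongly higher genes were found in fewer injured cells than an even spread would give. Fabp5 was found in 41.05% of injured cells, against 88.55% under an even spread and 12.5% of injured endothelial cells. Gpnmb was found in 24.5% against 72.9%, Igf1 in 29.5% against 50.02% with 0 of 56 endothelial cells (which allows up to 3 of 56), and Cd5l in 12.6% against 36.65%. Cst7 was found in 1.78% of sham and 39.75% of injured cells (37.7 to 41.85), against 55.7% under an even spread and 10.7% of endothelial cells, and in 41.8% without macrophage-marker cells. Ifi27l2a was found in 4.89% of sham and 51.9% of injured cells (49.75 to 54.0) and Lgals3bp, a secreted galectin-binding protein, in 19.4% and 69.7% (67.7 to 71.7), against 14.3% and 32.1% of injured endothelial cells. Before thinning, the sham and injured shares were 2.074% and 85.22% for Spp1, 6.963% and 66.02% for Cst7, 6.074% and 46.82% for Igf1 and 11.26% and 72.15% for Ifi27l2a. Ifitm3 was found in 7.11% of sham and 45.9% of injured cells, at means of 0.184 and 1.155 UMIs. All endothelial cells of both libraries held it, at means of 4.905 and 6.107 UMIs. The endothelial share thus does not give the level of free RNA for Ifitm3.

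Over the 53 genes at least 4-fold higher, the median ratio of the observed to the even share was 0.763. Above the 95th percentile of sham cells lay at least 75% of injured cells for 0 of the 53 genes, 25% to 75% for 14 and under 25% for 39. The median was 17.7%. At 3000 UMIs a low gene is missed in cells that express it, and free RNA adds UMIs to cells that do not, so these shares describe detection.

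**Figure D4:**
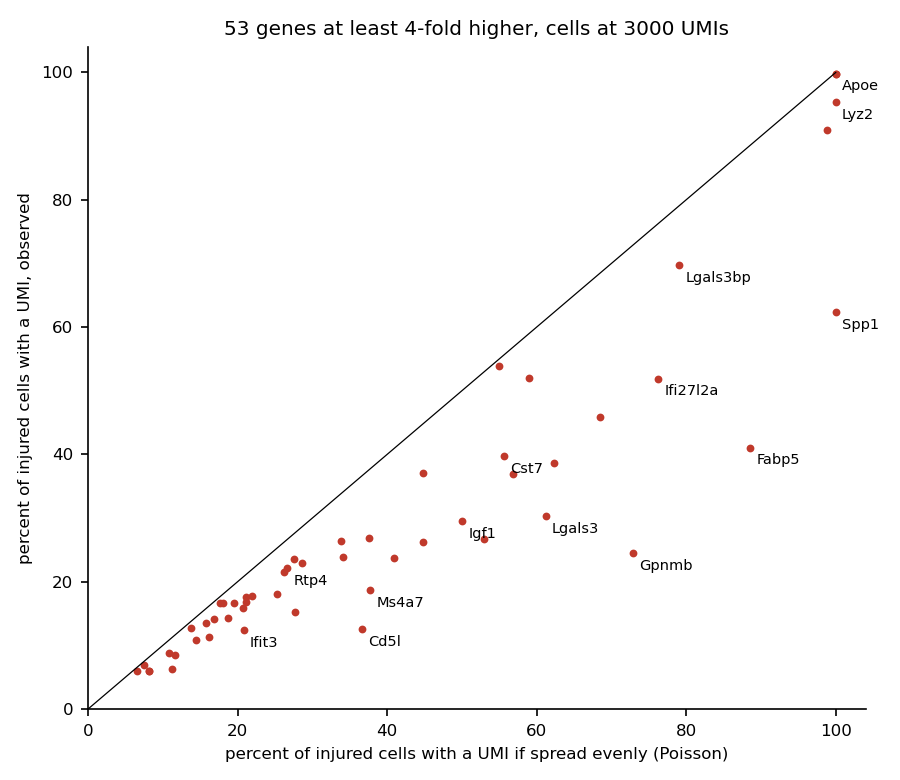
Each point is 1 of 53 genes at least 4-fold higher after injury, with the percent of injured cells that would hold a UMI under an even Poisson spread (x) and the percent observed (y), both at 3000 UMIs per cell, and the line marks equal values. Apoe and Lyz2 lie at the upper right near the line, and Gpnmb, Fabp5 and Spp1 fall furthest below it.

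Scores summed over a list per thinned cell are less limited by single-gene depth. The disease-associated score without Apoe had a median of 58 UMIs in sham and 158 in injured cells, with 73 at the injured 10th percentile, and 79.5% of injured cells (77.8 to 81.2) lay above the sham 95th percentile of 98 UMIs. Of the injured cells, 374 lay within 20% of that limit. Whether the cells above it form a separate type was not tested. The knockout-labelled sham cells had 10.3% above it and the injured ones 68.5%. Without macrophage-marker cells the injured median was 142.

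The homeostatic score without the 4 selection genes had a median of 250 UMIs in sham and 132 in injured cells, and 49.4% of injured cells (47.3 to 51.55) lay below the sham 5th percentile of 130.7. The share was 12.9% when 1 marker sufficed for selection, 17.8% with a second set of microglia markers, and 19.8% at 1500 UMIs per cell. The injured cells ran from 52 UMIs at the 10th percentile to 270 at the 90th, and the sham cells from 167 to 342. Without macrophage-marker cells the medians were 256 and 167.

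The interferon score had a median of 1 UMI in sham and 7 in injured cells, and 46.95% of injured cells (44.8 to 49.1) lay above the sham 95th percentile of 7. Another seed for thinning gave 42.35%, selection by 1 marker 30.1% and the second marker set 29.25%. The cytokine score had medians of 9 and 23, with 23.01% of injured cells above the sham limit of 45. MHC class I had medians of 12 and 22 with 53.05% above, lipid handling 5 and 91 with 70.1% above, and glycolysis 8 and 11 with 28.3% above. The lipid score is largely Apoe, with a mean of 140.2 UMIs in injured cells beside 127.4 for Apoe alone. The angiogenic score had medians of 3 and 5 but a 90th percentile of 55 in injured cells, and in the macrophage-marker cells its median was 25. Spp1 is a member, with 18.05 of the mean of 22.15 UMIs and a 90th percentile of 48. G2/M stayed at a median of 1 in both, with 5.39% of injured cells above. MHC class II stood at 16 and 17 with 7.67% above. The chaperone score had medians of 22 and 15, with 14.97% of injured cells below the sham limit. That share was 8.53% at 1500 UMIs, 27.1% at 6000 UMIs, 26.4% at a 5 percent mitochondrial limit and 22.7% with the second marker set.

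**Figure D5:**
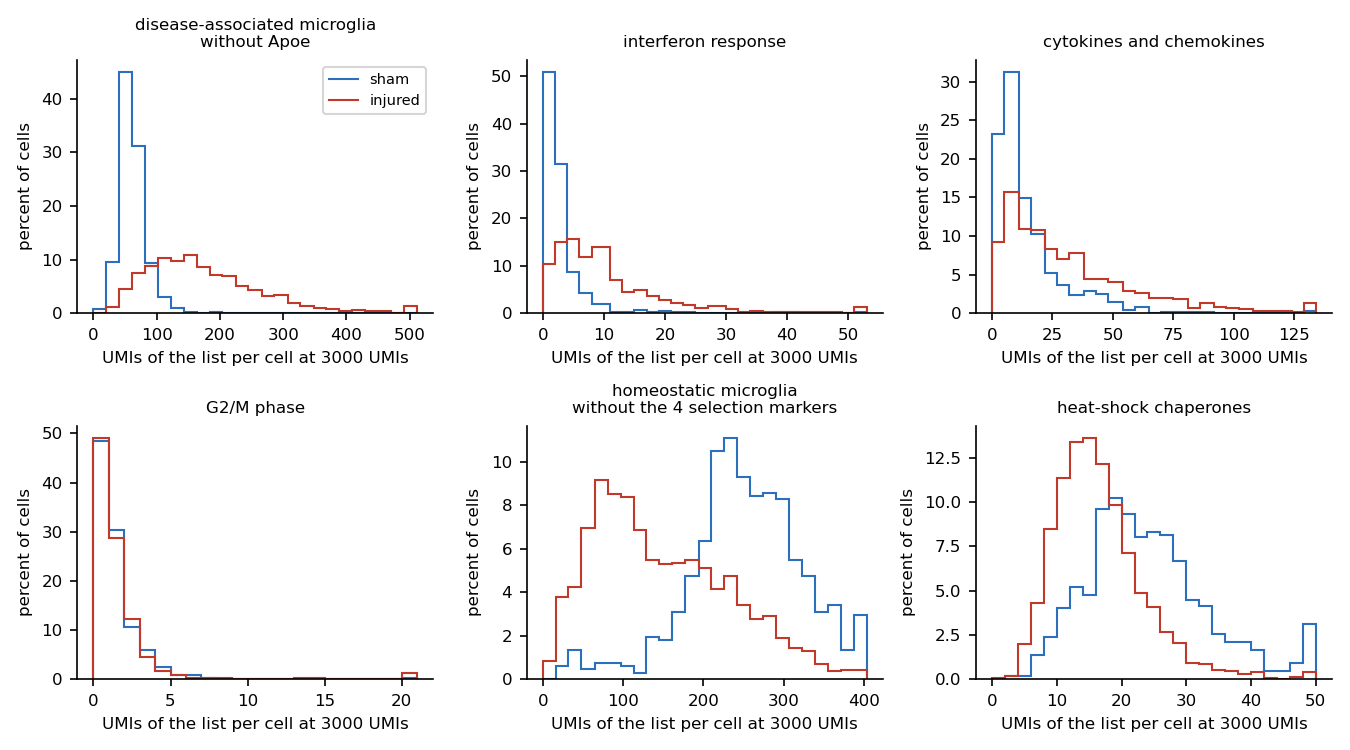
Percent of wild-type sham (blue, 675) and injured (red, 2151) cells (y) by the UMIs of a list per cell at 3000 UMIs (x), for 6 lists, with all higher values in the last bin. The disease-associated median was 58 in sham and 158 in injured cells, the homeostatic one 250 and 132, and the G2/M one 1 in both.

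Scores within the same cells were partly shared. Of 2151 injured cells, 13.1% lay above the sham limit for none of the disease-associated, interferon, cytokine and G2/M scores, 35.7% for 1, 35.3% for 2, 15.02% for 3 and 0.883% for all 4. Among cells high for the disease-associated score, 51.3% were high for interferon, against 30.2% of the rest, and 27.5% were high for cytokines, against 5.46%. Glycolysis was high in 33.7% against 7.50%, and the homeostatic score was low in 58.0% against 16.1%. The G2/M score did not follow the disease-associated one, at 5.32% against 5.68%. Cells high for MHC class II were low for the homeostatic score in 15.8% of cases, against 52.2% of the other cells. Without macrophage-marker cells, the interferon shares were 53.6% and 26.0% and the cytokine shares 34.3% and 4.25%. All cells were set to the same number of UMIs, so a cell that gives more of them to one list has fewer for others, and these shares describe cells of 1 library with no test.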

How the data were processed

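Single-cell RNA libraries of CD11b-positive mouse brain cells were made with 10x 3′ v3 chemistry, per the labels' protocols. The authors deposited raw UMI counts per gene and barcode, and the submitters' processing notes name Cell Ranger 6.0.1 and mm10. All deposited count columns of the 4 samples were used (0 left out). Members and gene lists were chosen with earlier results of these data known.

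Counts of the selected cells were summed per library. The wild-type contrast has 1 library a group: ratios only, with exact Poisson, conditional binomial or Clopper-Pearson 95% intervals for counting error. A value of 0 was set to 3 counts for a bound. PCR copies are collapsed by UMI. Cells were thinned without replacement to 3000 UMIs with a fixed seed. An endothelial reference cell had at least 3 endothelial markers and at most 1 of the 4 microglia markers. Doublets were not removed in the main analysis. As an alternative, the barcodes with the highest Scrublet scores (scanpy 1.11.5) were left out at 0.8% per 1000 barcodes, which removed 157 sham and 179 injured barcodes.

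Summed counts of 4 libraries were tested with edgeR 4.0.16 (R 4.3.3; quasi-likelihood, TMM, filterByExpr, Benjamini-Hochberg), with DESeq2 1.42.0 as an alternative. Scripts used Python 3.11.15. The procedures were tested on simulated counts. Named genes were the selection markers, the 10 highest and 10 lowest log2 ratios, the 3 members of each list with the largest ratios, 19 genes chosen for the tissue and injury, and the 5 genes with the largest rise in detection and 5 with the most uneven spread among those at least 4-fold higher. Mitochondrial, ribosomal protein, Xist, Tsix and Y-linked genes were to be left out of the highest and lowest ratios, but Gm47283 on chromosome Y was not. Other list members named in the text were chosen after their values were seen. Alternatives covered the marker rule, filters, scaling, prior, thinning depth and baseline. A few genes of the lists are not reported here by name.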

Additional observations from a re-analysis of the deposited data

Results flagged for a closer look

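Among the named genes at least 2-fold different in the wild type, 3 had a log2 ratio of the opposite sign in the knockout-labelled pair. These differences between pairs were not tested. Cd93, a receptor of endothelial and myeloid cells, had a log2 ratio of 1.26 in the wild type (4.85 and 25.65 CPM), with 3.58 and 3.32 CPM in the knockout-labelled pair. Mgp had a ratio of -2.28 (54.9 and 3.33 CPM), with 0.499 and 6.64 CPM in the knockout-labelled pair. S100a8 had a ratio of -2.85 (510.4 and 62.4 CPM), with 3.41 and 4.47 CPM in the knockout-labelled pair.

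Cells outside the selection also held Spp1 after injury. Filtered injured cells with 0 of the 4 microglia markers, 393 cells, had 11997 CPM, and those with 1 marker, 368 cells, had 15110 CPM. The sham cells with 0 and 1 marker had 9.14 and 16.3 CPM.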

How the results depend on the processing

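No paired analysis was possible because each group has 1 library and the labels carry no shared replicate numbers. The settings that left out barcodes of another library, left out macrophage- and neuron-marker cells together, counted markers at equal depth or allowed 25 percent mitochondrial UMIs were chosen after seeing the data. The count of genes at least 2-fold higher (254) became 731 with TMM factors, 758 with median-of-ratios factors and 95 with a prior of 50 CPM. The count at least 2-fold lower (625) became 117, 110 and 149 with these, 1180 with a prior of 1 CPM, 385 without macrophage-marker cells, 345 without macrophage- and neuron-marker cells, 343 with markers counted at equal depth and 375 with each cell weighted equally. Chaperone members lower (13) became 5 with either scaling and 8 with a prior of 50 CPM. The disease-associated share (79.5%) was 77.6% with at least 3 markers, 73.9% without macrophage-marker cells, 76.6% without neuron-marker cells, 75.3% without doublets, 72.8% with markers at equal depth, 73.3% without macrophage- and neuron-marker cells, 87.9% at 6000 UMIs and 71.5% against the knockout-labelled sham. The interferon share (46.95%) was, in the same order as far as it moved, 52.96%, 58.0%, 41.7%, 41.8%, 52.35% and, against the knockout-labelled sham, 52.7%. It was also 30.1% with 1 marker, 29.25% with the second marker set, 38.3% at a 5 percent mitochondrial limit, 37.8% without barcodes of another library, 39.7% at 1500 UMIs and 42.35% with a second seed. The homeostatic share (49.4%) was 12.9% with 1 marker, 17.8% with the second marker set, 47.1% without macrophage-marker cells, 41.7% without neuron-marker cells, 44.4% without both, 45.2% without doublets, 45.5% and 45.4% at mitochondrial limits of 5 and 25 percent, 38.4% with markers at equal depth, 44.8% without barcodes of another library, 19.8% and 60.85% at 1500 and 6000 UMIs, and 69.1% against the knockout-labelled sham. In the edgeR fit, leaving out 1 library gave 174 to 3165 genes higher and 60 to 2426 lower, and DESeq2 gave 908 lower. Signs turned for Mgp (0.15 without barcodes of another library, 0.35 against the knockout-labelled sham), S100a8 (2.43) and S100a9 (2.46), the last 3 values against that same baseline. The causes were not tested. These are the 4 turns of sign among named genes at least 2-fold different. Below that size signs also turned, with either scaling, for H2-DMa, H2-Ob, Pcna and Socs3 among others, and list medians turned with TMM factors for S phase, MHC class II and immediate early genes. Of 323 counts of list members over the settings, 28 moved by more than 1.5 times. Depth limits genes under about 20 CPM, and with 1 library a group no value here separates the injury from differences between mice, dissections or libraries.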
